A study of Rattus norvegicus with 15 samples.

Results

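Olfactory ensheathing cells are the glia that wrap the bundles of olfactory axons on their way from the nasal lining to the olfactory bulb, and Schwann cells are the glia that wrap and myelinate other peripheral nerves, such as the trigeminal branches of the nose. Both arise from the neural crest and share many transcripts. The genes described here are 7 that are widely used to mark these cells. S100b encodes a calcium-binding protein, Fabp7 the brain fatty acid-binding protein, Gfap the filament protein of astrocytes and non-myelinating glia, Npy the peptide neuropeptide Y, Ngfr the low-affinity neurotrophin receptor p75, and Pmp22 and Mbp are proteins of the myelin sheath. The members were chosen by gene name on the array, and the 7 names had 8 array sequences out of 41012 (33933 gene names).

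Total RNA had been prepared from the olfactory epithelium of 8 Brown Norway rats aged 6 weeks, for which no treatment is named, 4 males (numbers 1, 2, 5 and 6) and 4 females (numbers 3, 4, 7 and 8). The tissue of each side of the nose was taken apart from the other, as nostril A and nostril B, and every sample had an array of its own, of Agilent's whole rat genome design. Male 1 has nostril A only, so there were 15 arrays, 7 male and 8 female. The cells were not separated, and in such bulk RNA fewer cells of a type and less RNA per cell cannot be told apart. The arrays lay on 4 slides, the first with males 1 and 2 and nostril A of female 3, the second with female 4 and the other nostril of female 3, the third with males 5 and 6, and the fourth with females 7 and 8. The array medians were 57.4 to 83.4 intensity units. Levels below are log2 of the signal over the array median, with a floor of 0.1 of the median (-3.32), and they are compared between samples of 1 array sequence, never between sequences.

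Each member is read by 1 array sequence of 60 bases, and Mbp by 2. Bases 31 to 60 of each are shown, since these letters define which transcript was measured. They are given as the array annotation has them, 5′ to 3′, with the letters AATAAA, the canonical polyadenylation signal, in capitals.
S100b A_43_P15530: tatttgacatcaacagttccaactggtgga
Fabp7 A_43_P12450: attataagtttgtctttggtgtggaggcag
Gfap A_44_P464502: agatcccgaggcaaagaatctctagccaga
Npy A_42_P771373: tatatgtgtgtttaAATAAAgtatcatgca
Ngfr A_44_P556989: tggtatttttatggaccccaatctgcaatt
Pmp22 A_44_P353515: ttactacAATAAATAAAtctcaaagccttc
Mbp A_43_P11782: ctcttaatcccgtggggctgtgaacgcggc
Mbp A_44_P334799: gaacattgtgacacctcgtacaccccctcc

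AATAAA was searched on the printed strand only and lay in the Npy and Pmp22 sequences, as in 1749 of all 41012 array sequences (4.26%). On build rn3 the annotation places S100b at chr20:12792126-12792185 on the minus strand and Fabp7 at chr20:36829775-36829834 on the plus strand. Gfap lay at chr10:92075205-92075264 (minus) and Ngfr at chr10:84277452-84277511 (minus). Pmp22 lay at chr10:49349160-49349219 (plus) and Npy at chr4:78321255-78321314 (plus). Mbp sequence A_43_P11782 lay at chr18:79129183-79129242, and A_44_P334799 was spread over chr18:79117549-79119487 of the same strand, 9.70 kb away, so that its 60 bases are split on the genome. The annotation does not say which exon or untranslated region these positions fall in. The accessions of all 8 sequences carry the same gene symbols in the RefSeq table, and where that table gave a strand (7 of 8) it was the strand of the array sequence.

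The first question was which of the 7 genes were detectable in this tissue. Of the 8 sequences, 7 were well above background on at least 11 arrays, against 65.1% of all sequences on the array. Those of Fabp7, Npy, Gfap, Ngfr, Pmp22 and Mbp A_43_P11782 were so on 15 of 15 arrays, as were 61.2% of all, and Mbp A_44_P334799 on 14. S100b, the most used marker of both cell types, was well above background on 0 of 15 arrays, as were 23.8% of all sequences. It is printed 10 times on an array, and 0 of the 138 spots kept were well above background. Its mean signal per array ran from -2.89 to -0.445 intensity units, while the dimmest spot called well above background on an array had 10.01 to 14.49. So 6 of the 7 markers were measured and the label of the group rests on them, and for S100b only a bound can be given. The sequence was of the strand of the gene, and whether the transcripts of this tissue hold it was not tested.

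Other genes of the same cells were measured beside the 6. Sox10, the transcription factor of the neural crest glia (mean log2 level 4.37 ± 0.20, SD, n = 8 rats), and Erbb3, the neuregulin receptor of Schwann cells (0.28 ± 0.17), were well above background on 15 arrays. Of the 22 sequences of a myelin and Schwann cell list 16 were expressed, and of 14 for glial lineage regulators 10, where 65.1% of all sequences were. Among those that were not, Cdh19, a cadherin of Schwann cell precursors, was well above background on 3 arrays, Pou3f2 on 2, Cldn19 on 1, and Drp2 and Pou3f1, which serve myelination, on 0.

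Fabp7, which carries fatty acids in immature and ensheathing glia, had a median log2 level of 7.88 over the 15 arrays. The lowest was 6.51 in nostril B of female 4 and the highest 8.75 in nostril A of male 2. Averaged per rat the mean was 7.80 ± 0.46 (SD, n = 8), with female 3 the lowest (7.19) and male 2 the highest (8.75), which are 2.94-fold apart. Male 2 stood above the other males, which had 7.90, 7.83 and 7.87.

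Gfap ran from -1.01 in nostril B of female 3 to 1.64 in nostril A of female 4, with a median of 0.33. Its mean per rat was 0.38 ± 0.68 (SD, n = 8), with the lowest rats female 3 (-0.50) and female 7 (-0.49) and the highest female 8 (1.31) and male 2 (1.15). This 3.50-fold range was the widest of the members, and it was set by females at both ends. The 10 spots of an array had a median SD of 0.086 log2 units, which covers printing and scanning only.

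Npy ran from 5.77 in nostril B of female 3 to 7.50 in nostril A of male 2, with a median of 6.87. Its mean per rat was 6.72 ± 0.52 (SD, n = 8), lowest in female 3 (5.90) and female 7 (6.04) and highest in male 2 (7.38), a 2.78-fold range. The rats that were low in Gfap were thus low in Npy as well. The median SD of its spots within an array was 0.099.

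Ngfr, which binds all the neurotrophins, had the narrowest SD between nostrils of the members (0.13). Without female 4 its SD was 0.14, and those of Fabp7 (0.091) and Pmp22 (0.099) were narrower. The level of Ngfr ran from 0.80 in nostril A of female 8 to 1.57 in nostril A of female 3, with a median of 1.12. The mean per rat was 1.13 ± 0.23 (SD, n = 8), from 0.84 in female 8 to 1.44 in female 4, a 1.51-fold range. The median SD of its spots was 0.078.

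Pmp22, a membrane protein of compact myelin that other cell types also make, ran from 3.64 in nostril B of female 4 to 4.67 in nostril B of male 5, with a median of 4.43. Its mean per rat was 4.35 ± 0.23 (SD, n = 8), from 4.00 in male 1 to 4.61 in male 5, a 1.53-fold range. Apart from nostril B of female 4 and the single array of male 1, all arrays lay at 4.27 or above.

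Mbp, the basic protein that holds the layers of myelin together, was read by 2 sequences. With sequence A_43_P11782 it ran from 0.18 in nostril B of female 3 to 2.15 in nostril B of male 2, with nostril A of male 2 at the median of 1.597 and with a mean per rat of 1.42 ± 0.31 (SD, n = 8). With A_44_P334799 it ran from -2.19 in nostril B of male 6 to 0.39 in nostril B of male 5, with a median of -0.52 and a mean per rat of -0.58 ± 0.40 (SD, n = 8). Both sequences were low in nostril B of male 6 and nostril A of female 7, and only A_43_P11782 was low in nostril B of female 3. Over the 15 arrays, which share animals and slides, the pair correlated at r = 0.53.

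**Figure D1:**
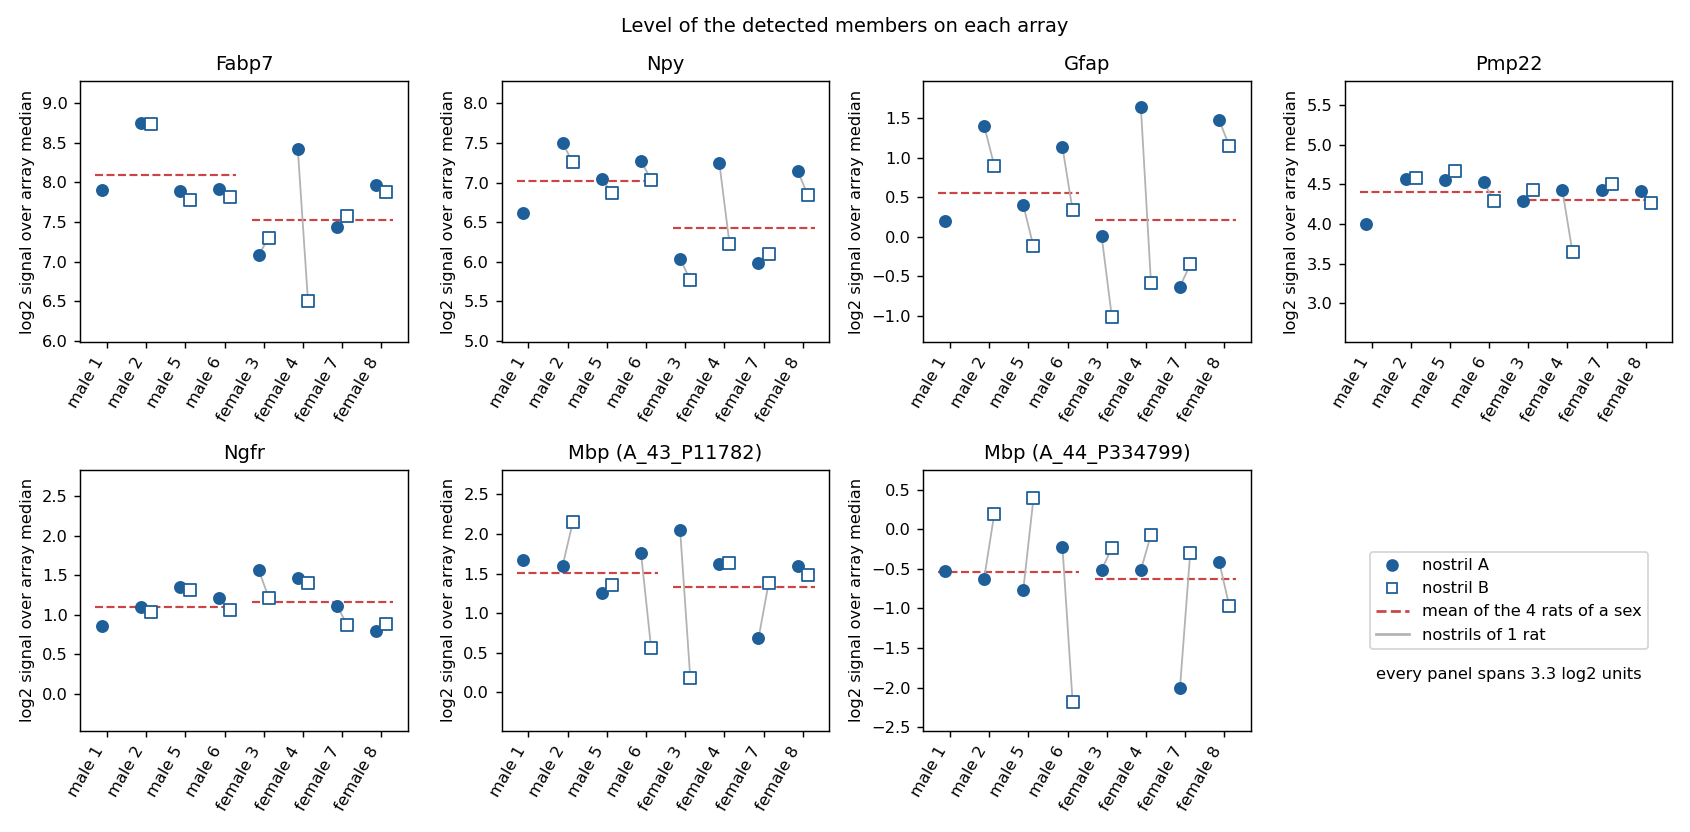
Log2 signal over the array median (y axis) of the 7 detected array sequences, 1 panel each, in the 8 rats (x axis). Filled circles are nostril A and open squares nostril B, grey lines join the nostrils of a rat, and dashed lines are the means of the 4 rats of a sex. Female 4 is split in the panels of Fabp7, Npy, Gfap and Pmp22 and not in those of Ngfr and Mbp A_43_P11782, and the Fabp7 means of males and females are 8.09 and 7.52.

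The nostrils of 1 animal were compared next, since the amount of nerve taken with the epithelium could differ between sides. Fabp7 was at 8.42 in nostril A of female 4 and at 6.51 in nostril B, a difference of 1.92 on the log2 scale, or 3.78-fold. In the other 6 rats its nostrils lay within 0.22 of each other. Only 0.283% of the 27574 sequences compared were as far apart in female 4.

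Gfap was at 1.64 in nostril A of female 4 and at -0.59 in nostril B, 4.71-fold apart, which 0.109% of the sequences reached. With normexp background correction the log2 difference was 1.299 in place of 2.23. Npy was at 7.25 and 6.23 (2.03-fold, reached by 2.85% of sequences), and Pmp22 at 4.43 and 3.64 (1.73-fold, reached by 5.38%). Ngfr was at 1.47 and 1.40, and Mbp A_43_P11782 at 1.62 and 1.64. In female 4, 4 of the members were thus higher in nostril A, while Ngfr and Mbp A_43_P11782 differed by less than 0.1. Mbp A_44_P334799 lay the other way, at -0.52 in nostril A and -0.07 in nostril B.

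Of the 7 member sequences tested, 3 were at least 2-fold apart in female 4 (Fabp7, Gfap and Npy), against 3.01% of all sequences. All 3 were higher in nostril A, against 2.11% of all sequences, and 0 were 2-fold higher in nostril B, against 0.892%. Of the members, 2 were 2-fold apart in female 3 (Gfap and Mbp A_43_P11782, against 2.78% of all sequences), 1 in male 5 (1.43%) and 1 in female 7 (1.31%), in both cases Mbp A_44_P334799, and 0 in male 2 (1.45%) and female 8 (0.631%). In male 6 it was 2, both Mbp sequences (1.96%), higher in nostril A (1.23%), and 7 of 7 were higher on that side to some degree, although 32.5% of all sequences were higher there. In female 7, 1 of 7 was higher in nostril A, against 46.9% of all sequences. The direction was thus not fixed across rats. Gfap, Npy and Ngfr were each higher in nostril A in 6 of 7 rats, with female 7 the exception for Gfap and Npy and female 8 for Ngfr. The share of all sequences with such a count was not taken.

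The differences of Gfap in the other rats were 0.51 in male 2, 1.02 in female 3, 0.52 in male 5, 0.80 in male 6, -0.28 in female 7 and 0.33 in female 8. Those of Npy were 0.25, 0.28, 0.19, 0.24, -0.12 and 0.30 in the same order. The Npy differences of 5 rats thus lay between 0.19 and 0.30, and female 4 stood apart.

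Over the 7 rats, the mean difference of nostril A minus nostril B was 0.73 for Gfap (SE 0.24), 0.31 for Npy (SE 0.11), 0.27 for Fabp7 (SE 0.22), 0.12 for Pmp22 (SE 0.10) and 0.12 for Ngfr (SE 0.06). It was 0.26 (SE 0.29) and -0.27 (SE 0.37) for the Mbp sequences. Without male 6 the value of A_44_P334799 was -0.64 and without female 7 -0.031. With normexp the mean was 0.42 for Gfap and 0.16 and -0.14 for the Mbp sequences. By limma with rat as a block, 0 of the 7 passed a false discovery rate of 1%, nor did any of the 27574 sequences tested (0%). The adjusted p-values of the members were 0.781 to 0.889 (limma). At an unadjusted p under 0.05 by limma there were 2 members, Gfap and Npy, where 5.89% of all sequences passed. Without female 4 the mean was -0.0087 for Fabp7, 0.0096 for Pmp22, 0.48 for Gfap and 0.19 for Npy, so the first pair of means rests on that rat. The difference of this contrast between the sexes passed 1% for none of the 7 (adjusted p = 1.00 each by limma), nor for any sequence (0%).

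**Figure D2:**
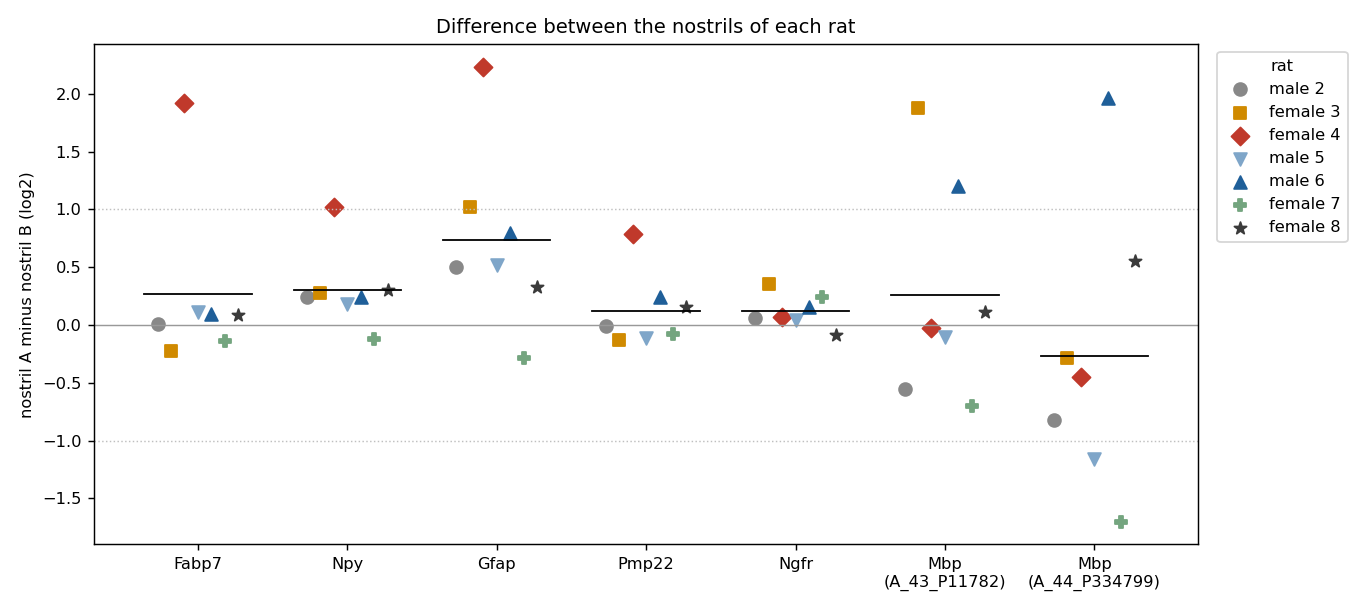
Log2 level in nostril A minus nostril B (y axis) for the 7 detected array sequences (x axis), 1 point per rat for the 7 rats with both nostrils. Horizontal bars are the means, the solid line is no difference and the dotted lines are 2-fold. Female 4 is the highest point for Fabp7 (1.92), Npy (1.02), Gfap (2.23) and Pmp22 (0.79), and female 3 for Mbp A_43_P11782 (1.88).

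Mbp differed between nostrils in other rats than Fabp7. With A_43_P11782 it was at 2.05 in nostril A of female 3 and at 0.18 in nostril B, 3.67-fold apart, and at 1.77 and 0.56 in the nostrils of male 6, 2.30-fold apart. In female 7 it was lower in nostril A (0.68) than in nostril B (1.38). The nostrils of female 3 lay on different slides, those of every other rat on 1 slide, and without female 3 the mean difference of this sequence went from 0.26 to -0.011.

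With A_44_P334799, Mbp was at least 3.60-fold higher in nostril A of male 6, since nostril B was not well above background there, and it was 3.25-fold lower in nostril A of female 7 and 2.23-fold lower in nostril A of male 5. The Mbp sequences moved to the same side in 6 of 7 rats. The exception was female 3, where A_44_P334799 was at -0.52 in nostril A and -0.23 in nostril B.

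Markers of other cells moved with these differences. Central nervous tissue was gauged by 11 sequences tested of a list of 12 genes, and the median of their differences between nostrils was 1.15 in female 3 (6 of 11 at least 2-fold higher in A), 0.78 in male 6 (4 of 11), -0.46 in male 2 and -0.30 in female 7. In female 4 it was 0.20. Those are the rats, and the directions, in which Mbp A_43_P11782 differed most. The mean level of the list per array ranged from -0.81 to 0.52 in males and from -1.0 to 0.42 in females.

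The sequences of that list did not all follow this order. Mobp, a myelin protein of oligodendrocytes, was at least 8.52-fold higher in nostril A of female 3 and at least 3.10-fold in male 6 with sequence A_44_P353699, as both B nostrils were not well above background. With A_44_P167930 it differed by 0.28 on the log2 scale in female 3 and was at least 1.35-fold higher in nostril A of male 6. Mog, the oligodendrocyte glycoprotein, differed by 2.75 and 1.20 on the log2 scale with A_43_P12283 and was at least 4.29-fold lower in nostril A of female 7, while with A_44_P397725 it differed by -0.11 in female 3 and -0.080 in female 7 and was at least 1.47-fold higher in nostril A of male 6. In female 3, Aqp4, the water channel of astrocytes, differed by -0.17. Gad2, which makes the transmitter GABA, differed by 2.43 in female 3 and also by 2.16 in female 4. Of the list's 17 sequences, 9 were expressed (at least 11 arrays), and those of Slc17a7 and 2 of 3 for Gad1 were not. The part of central nervous tissue in the Mbp differences was not tested.

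In female 4, bone and connective tissue markers were higher in nostril A together with Fabp7, Gfap and Npy. The median difference was 1.24 for 4 of 4 bone sequences (Bglap2 1.36, Ctsk 1.33, Acp5 1.15, Ibsp 0.56) and 0.78 for 9 fibroblast sequences, 7 of them higher in A. It was -0.0094 for 9 sequences of mature olfactory neurons, 0.04 for 4 of immature neurons and -0.16 for 4 of sustentacular cells, and the median over all sequences was -0.013. Bone markers differed by 0.55 in male 2 and 0.52 in male 5 as well, where Fabp7 differed by 0.01 and 0.11. Th, which makes the precursor of dopamine and noradrenaline, differed by 2.78 in female 4 and 3.10 in female 3, while Dbh and Slc6a2, which mark noradrenergic fibers, were well above background on 2 and 3 arrays. The part of these tissues in the female 4 difference was not tested.

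Other genes of glia were set beside the members, by lists. In female 4, Ednrb, the endothelin receptor of neural crest cells, was 2.25 higher in nostril A, Frzb, a secreted Wnt inhibitor, 1.51, Foxd3, a factor of early neural crest, 1.27, and Sox10 0.84. Dhh, the hedgehog ligand of Schwann cells, was 1.42 higher with A_44_P639832, a sequence detected on all arrays, and differed by -0.014 with one detected on 8. The differences of Erbb3 (-0.0047) and of Mal, a myelin proteolipid (-0.04), were close to 0.

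By list, 16 of 17 sequences of ensheathing cell adhesion and filament genes were higher in nostril A of female 4, with a median difference of 0.47. The medians of 16 myelin and Schwann cell sequences (0.11, 12 higher in A) and of 12 glial lineage regulators (0.19, 9 higher) were smaller. Of all sequences 46.0% were higher in nostril A of this rat.

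**Figure D3:**
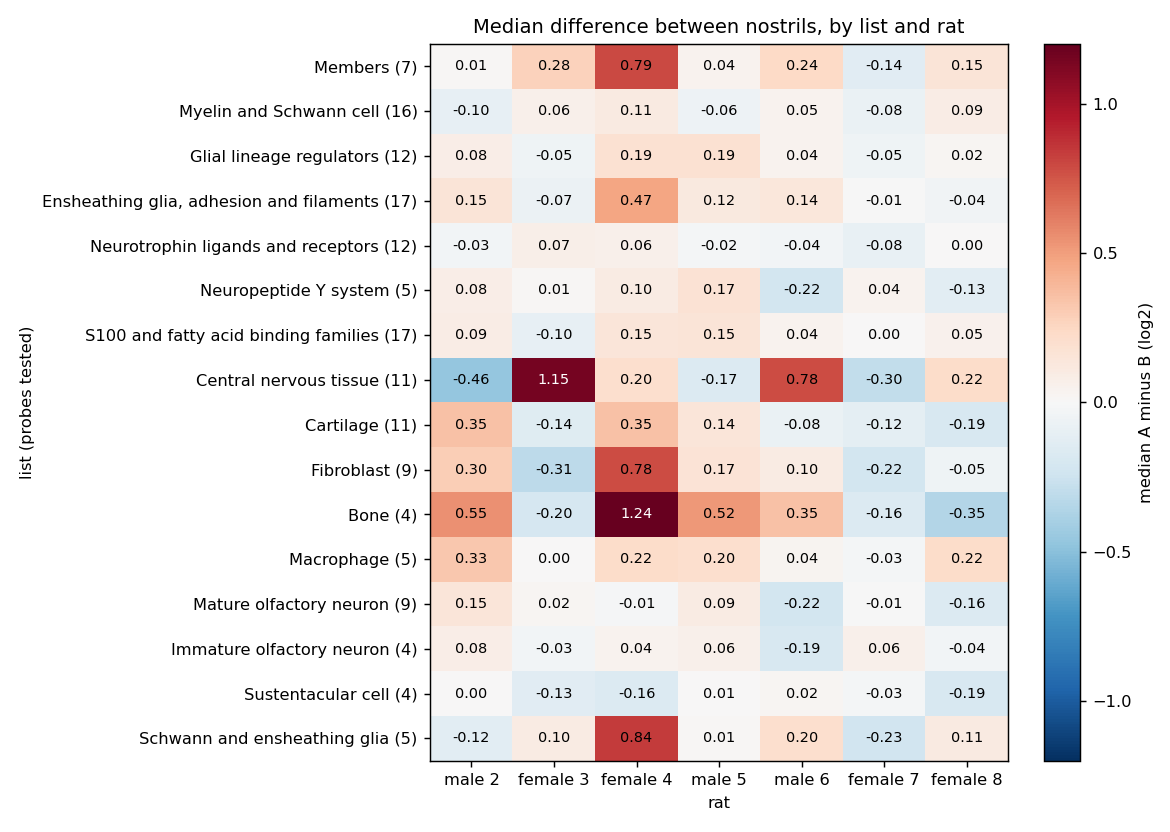
Median difference between nostrils (A minus B, log2, color scale and printed value) of the sequences tested in each gene list (rows, number of sequences in brackets) for the 7 rats (columns). The last row is a short list of Schwann and ensheathing glia markers, Sox10 and Erbb3 among them. The members (0.79), this short list (0.84), the fibroblast (0.78) and bone (1.24) lists are highest in female 4, and the central nervous tissue list in female 3 (1.15) and male 6 (0.78).

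The spread between nostrils and between rats was then compared. The SD between nostrils of a rat was 0.82 and 0.64 log2 units for the Mbp sequences, 0.73 for Gfap, 0.52 for Fabp7, 0.31 for Npy, 0.23 for Pmp22 and 0.13 for Ngfr, where the median over all sequences tested was 0.12. That of Gfap was wider than in 98.7% of sequences and that of Fabp7 wider than in 96.7%, while Ngfr was near the middle (54.9%). Without female 4 the SD was 0.091 for Fabp7, 0.099 for Pmp22, 0.14 for Ngfr, 0.17 for Npy and 0.45 for Gfap (median of all sequences 0.12). The wide spread of Fabp7 thus rests on that rat, and so does the rank of Ngfr as the narrowest. The SD between the 8 rats was 0.68 for Gfap, 0.52 for Npy, 0.46 for Fabp7, 0.40 and 0.31 for Mbp, 0.23 for Ngfr and 0.23 for Pmp22 (median of all sequences 0.16). Ngfr and Npy therefore varied 1.84 and 1.66 times as much between rats as between nostrils, and Mbp 0.475 and 0.496 times as much, where the median ratio over all sequences was 1.29 and a rat mean averages its nostrils.

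**Figure D4:**
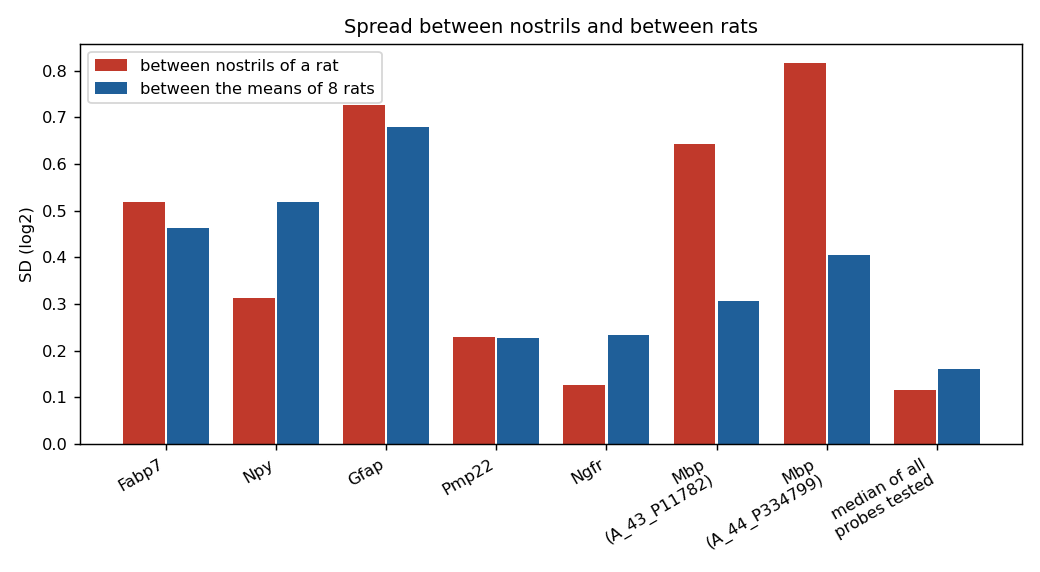
SD in log2 units (y axis, from 0) between the nostrils of a rat (red, 7 rats) and between the means of the 8 rats (blue) for the 7 detected array sequences and, at the right, the medians over all sequences tested. With all 7 rats, Mbp and Gfap have the widest spread between nostrils (0.64 to 0.82), Ngfr the narrowest (0.13). Without the rat with the widest Fabp7 gap between nostrils, Fabp7 (0.091) and Pmp22 (0.099) are narrower than Ngfr (0.14).

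To ask whether rats of 1 sex differed by more than their nostrils, limma's F statistic was used. Ngfr had F = 7.21 (adjusted p = 0.0313) and Npy F = 5.14 (adjusted p = 0.0590), followed by Gfap (2.66), Pmp22 (2.17), Fabp7 (1.51) and Mbp (0.81 and 0.67). The median F over all sequences was 2.37. None of the 7 member sequences passed 1%, where 2.79% of all sequences did, and 1 (Ngfr) passed 5%, where 16.1% did. At an unadjusted p under 0.05 there were 2, Ngfr and Npy, against 37.1% of all sequences. Females 3 and 4 were high in Ngfr (1.39 and 1.44) and females 7 and 8 low (0.99 and 0.84), and these pairs lay on different slides. The study bought its adult rats from 2 suppliers, which the sample labels used here do not name. Supplier was thus not part of any fit. With slide as a random block Ngfr had F = 5.79 (adjusted p = 0.0789) by limma. Over the 3 contrasts between rats of a sex that lay wholly on 1 slide it had F = 1.99 (adjusted p = 0.532). Those contrasts leave out females 3 and 4.

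The nostrils of female 4 set the error of Fabp7 in this test. Without that rat Fabp7 had F = 45.7 (adjusted p = 0.00141) and Npy F = 19.0 (adjusted p = 0.00853), and both passed 1% by limma, as 1.4% of all sequences did. Gfap (F = 8.50, adjusted p = 0.0339) and Pmp22 (F = 6.95, adjusted p = 0.0474) then passed 5% as well, where 11.8% of all sequences did, and Ngfr no longer did (adjusted p = 0.0643). Of the males, male 2 was the high rat in Fabp7, and without male 2 the F of Fabp7 with female 4 kept in was 0.546. Leaving out the rat with the widest gap lowers the error, so the rise in F is no independent result. No fit left out both rats, and these fits had no term for slide.

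The sexes were compared over the rat means. Fabp7 was at 8.09 ± 0.44 in males and 7.52 ± 0.30 in females (SD, n = 4 each), a difference of -0.57 (SE 0.22). Without male 2 it was -0.35. Npy was at 7.03 ± 0.33 in males and 6.42 ± 0.53 in females, a difference of -0.60 (SE 0.25). By limma neither passed 1% (adjusted p = 0.229 and adjusted p = 0.260), and males and females overlapped for every member detected (11.3% of all sequences did not overlap). Gfap differed by -0.35 (SE 0.40), Mbp by -0.17 (SE 0.19) and -0.09 (SE 0.26), Pmp22 by -0.10 (SE 0.14) and Ngfr by 0.07 (SE 0.15). These small differences depended on single rats. That of Gfap was -0.15 without male 2, -0.11 without female 3 or female 7 and -0.71 without female 8. That of Pmp22 was -0.23 without male 1, -0.038 without male 2, -0.026 without male 5, -0.15 without female 7 and -0.0085 without female 4. That of Mbp A_43_P11782 ran from -0.29 without male 6 to -0.051 without male 2.

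So 0 of 7 members passed the comparison of the sexes, where 12 of all 27625 sequences (0.0434%) did. At a false discovery rate of 5% there were also 0, against 0.0724% of all sequences, and at an unadjusted p under 0.05 by limma there were 2, Fabp7 and Npy, against 17.1%. Only slide 1 held both sexes, with 1 female array. With slide as a block the differences, which then rest on that array, were -1.39 for Fabp7, -1.08 for Npy and 0.57 for Ngfr. That fit took each array as a sample in place of the rat means. The nostrils of a rat thus counted as independent, and the animal was not the replicate there. Of the members Ngfr passed 5% in that fit (adjusted p = 0.0385 by limma), as did 7.69% of all sequences, on an arm of 1 array. No sequence of the lists for other tissues passed 1% between the sexes. The median difference, female minus male, was -1.67 for the 2 red blood cell sequences (array means of 6.37 to 9.41 in males and 4.797 to 8.84 in females), -0.38 for the fibroblast list, -0.29 for the bone list, 0.07 for mature olfactory neurons and 0.21 for sustentacular cells. Their part in the differences of Fabp7 and Npy was not tested.

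Whether the members varied together was asked for 15 pairs of the 6 detected genes, first over the 8 rats. Npy and Gfap had r = 0.89 and rho = 0.86 (exact permutation test, two-sided, p = 0.00543 and p = 0.0107), and Fabp7 and Npy r = 0.81 and rho = 0.76 (exact p = 0.00801 and p = 0.0368). Fabp7 and Gfap had r = 0.72 and rho = 0.79 (exact p = 0.0362 and p = 0.0279). After adjustment over the 15 pairs none passed 5% (adjusted p = 0.0601, 0.0601 and 0.165 for r, and 0.161, 0.184 and 0.184 for rho). Without the 2 rats farthest from the median of the first gene the values fell to r = 0.64, 0.63 and 0.52 (exact p = 0.165, 0.178 and 0.306). The relations were thus weaker without the extreme rats, which were male 2 and female 3 for Fabp7 and females 3 and 7 for Npy. With the values centered by sex, r was 0.95 for Npy and Gfap, 0.69 for Fabp7 and Npy and 0.75 for Fabp7 and Gfap (exact permutation within sexes, adjusted p = 0.104, 0.344 and 0.221), with rho of 0.93, 0.71 and 0.71 (adjusted p = 0.208, 0.382 and 0.382). A slide held at most 2 whole rats, too few for values within it. For Ngfr with the others r ran from -0.44 to 0.07 and rho from -0.71, with Fabp7 (exact p = 0.0576, adjusted p = 0.216), to 0.14.

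Over the differences between nostrils of 7 rats, Npy and Gfap had r = 0.95 and rho = 0.54 (exact permutation test, p = 0.0131 and p = 0.236), and Fabp7 and Pmp22 r = 0.93 and rho = 0.64 (exact p = 0.0123 and p = 0.139). Fabp7 and Npy had r = 0.92 and rho = 0.25 (exact p = 0.0417 and p = 0.595). None of the 15 pairs passed 5% after adjustment (adjusted p = 0.0982, 0.0982 and 0.156 for r, and 0.756, 0.756 and 0.763 for rho). Without the 2 rats farthest from the median, female 4 among them, r was -0.0080 for Npy and Gfap, 0.45 for Fabp7 and Pmp22 and 0.88 for Fabp7 and Npy (exact p = 1.00, 0.458 and 0.150). The relations of Npy with Gfap and of Fabp7 with Pmp22 thus rest on the rats left out. Fabp7 and Mbp had r = -0.18 (exact p = 0.689), and r = 0.66 without the 2 farthest rats (exact p = 0.233). Over the means of the 8 rats this pair had r = 0.69 (exact p = 0.0440, adjusted p = 0.165), and r = 0.21 without the 2 farthest rats (exact p = 0.606).

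**Figure D5:**
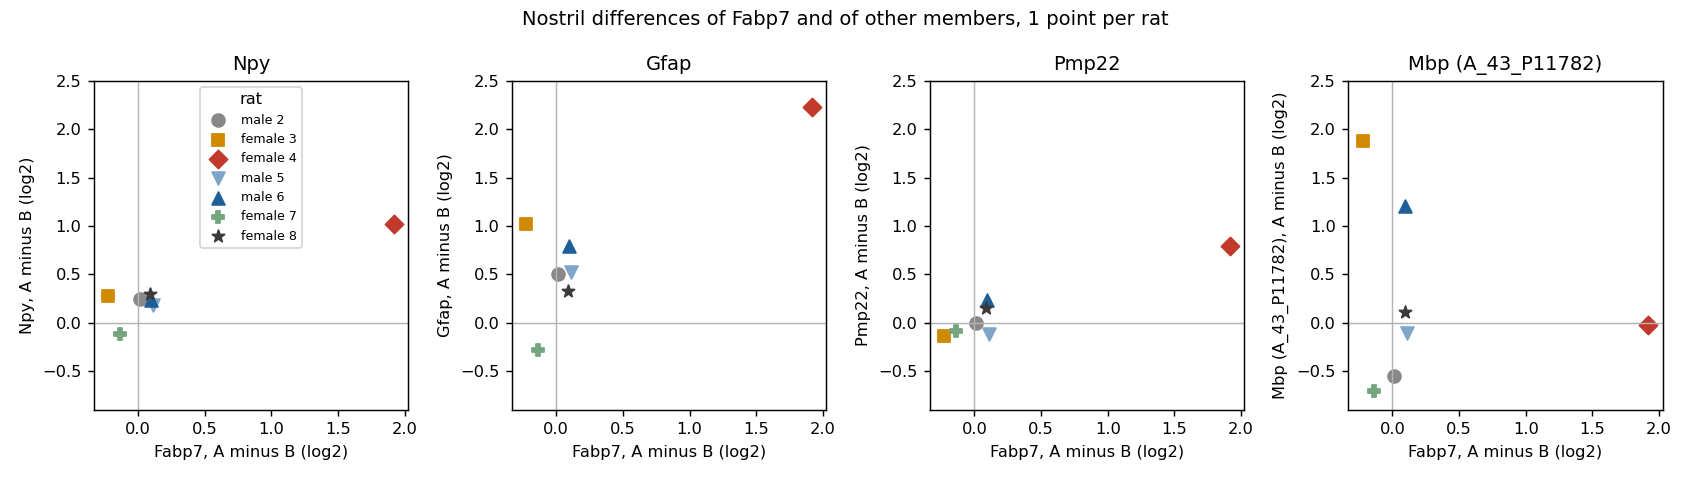
Nostril A minus nostril B (log2) of Fabp7 (x axis of each panel) and of Npy, Gfap, Pmp22 and Mbp A_43_P11782 (y axes), 1 point per rat for 7 rats. Female 4 lies alone at 1.92 on the x axis and is the highest point for Npy, Gfap and Pmp22, while for Mbp the high points are female 3 (1.88) and male 6 (1.20).

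The genes whose pattern over the 15 arrays was most like each member were listed among 25085 sequences detected on every array. The arrays share animals and slides, so the correlations are descriptions. Of the 5 for Fabp7, 4 are named here, Gloxd1 (r = 0.97), Slitrk2, a membrane protein of neurons and glia (0.97), B3gat2, which makes the HNK-1 sugar (0.95), and Lysmd2 (0.95). For Gfap they were Vtn, the adhesion protein vitronectin (0.97), Aqp9, a channel for water and glycerol (0.97), Atp1b2, a glial subunit of the sodium pump (0.96), Prg1 (0.95) and Nxph1 (0.95). Of the 5 for Npy, 4 are named as well, Atp1b2 with another sequence (0.91), the adenosine receptor Adora2a (0.90), the purine receptor P2ry12 (0.90) and Asrgl1 (0.89).

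Pmp22 was most like Reck (0.94), Asam (0.93), Clec14a (0.93), Col4a2, a chain of basement membrane collagen (0.92), and Ltbp3 (0.92). Mbp A_43_P11782 was most like Tpm3 (0.90), Neud4 (0.90), Sncb, the neuronal beta-synuclein (0.89), Slc32a1, the vesicle transporter of inhibitory transmitters (0.89), and Crhr1 (0.88). Ngfr was most like Kcnab2 (0.90), Plcl2 (0.89), Ankrd39 (0.85), Pc (0.83) and Vamp2 (0.82). When the levels were centered within each slide, 3 of the 5 stayed among the 5 highest for Fabp7, Gfap and Pmp22, 2 for Mbp, 1 for Npy and 0 for Ngfr.

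Among the members themselves, Npy was like Gfap at r = 0.88, and 0.0558% of sequences were more like Npy than Gfap was. Fabp7 and Npy had r = 0.80, and 0.702% of sequences were more like Fabp7. Fabp7 and Gfap had r = 0.76, Fabp7 and Pmp22 0.62, Fabp7 and Mbp 0.27, and Fabp7 and Ngfr -0.32. Fabp7, Npy and Gfap thus went together over the arrays more closely than any of them went with Ngfr.

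The ligands, receptors and relatives of the members were read from the lists. Neuropeptide Y acts on receptors of which Npy1r, Npy2r and Npy5r were well above background on 0 arrays and Ppyr1 on 4. Its processing enzymes Pam (6.78 ± 0.21, SD, n = 8), which amidates peptides, and Cpe (8.29 ± 0.19), which trims them, were detected on all arrays, and so was Dpp4, which cleaves the peptide. Between rats of a sex Pam had F = 16.0 (adjusted p = 0.00638 by limma, without slide in the fit). The other 4 sequences tested did not pass 1%, where 2.79% of all sequences did.

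Of the partners of Ngfr, Ngfb, the nerve growth factor, was well above background on 0 arrays and Bdnf on at most 1. Ntf3 (2.20 ± 0.12, SD, n = 8) and Ntf5 (0.84 ± 0.20) were detected on all 15, as were the receptors Ntrk2 and Ntrk3. Sort1, a sorting receptor that pairs with p75, was detected with both sequences (3.03 ± 0.20 and 3.51 ± 0.14). Of the 12 sequences tested, 0 passed 1% between rats (2.79% of all sequences) and 1 passed 5% (16.1%).

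In the families of S100b and Fabp7, every sequence of S100a1, S100a3, S100a4, S100a5, S100a6, S100a9, S100a10 and S100a13 was well above background on all arrays while S100b was on none. S100g was so on 3 arrays, and S100a8 on 15, 6 and 3 with its 3 sequences. Fabp5 (8.56 ± 0.18, SD, n = 8), Fabp3 and Fabp4 were detected beside Fabp7. Of the 17 sequences of these families tested, 1 passed 1% between rats (2.79% of all sequences) and 2 passed 5% (16.1%). S100a10 had F = 20.7 (adjusted p = 0.00342 by limma). With slide as a random block 148 of all sequences passed 1%, and 1 did over the contrasts within slides. The fatty acid-binding proteins of liver, intestine and testis, Fabp1, Fabp2, Fabp6 and Fabp9, were well above background on at most 1 array.

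Of 16 myelin and Schwann cell sequences tested, 0 passed 1% and 5 passed 5% between rats (median F 2.01), where 2.79% and 16.1% of all sequences passed and the median F was 2.37, among them Mal (F = 12.8). Of 12 glial lineage sequences 0 passed 5% (median F 1.92), and of 17 adhesion and filament sequences 0 passed 1% and 5 passed 5% (median F 2.18). No sequence of these 6 lists passed 1% between the nostrils or between the sexes by limma. Between the sexes the medians were -0.39 for the glial lineage list, -0.19 for the adhesion and filament list and 0.083 for the myelin list, where the median over all sequences was 0.0092.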

How the data were processed

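Total RNA of the olfactory epithelium had been amplified with T7 polymerase, labeled with Cy3 and hybridized to 1-color Agilent arrays. The deposited intensity values are scanner output of Agilent Feature Extraction (version 9.5.1.1 per the file headers), background-subtracted and not normalized between arrays. The ratio table of the authors holds the same signals with negative values set to 0.01 and divided by the median of the chip and of the gene, and it was used as an alternative only. All of 18872 probes compared matched that account within 2%.

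Control spots and outlier spots (61 to 175 an array) were left out, the spots of each probe were averaged, and the signal over the array median was set to at least 0.1 and log2 transformed. A probe was tested when well above background on at least 7 arrays. limma (version 3.58.1, R 4.3.3) with a trend on mean signal and Benjamini-Hochberg adjustment over all probes gave the nostril difference (rat as a block), the sex difference (rat means) and the F statistic between rats of a sex. Calls were made at 1%, as in the methods of the study. Samples were grouped by the animal and sex of their labels, the animal being the replicate, and the number of arrays limits the precision. Correlations used exact permutation (scipy 1.17.1). The fits were tested on simulated data.

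Alternatives were another scaling, floor, filter, background correction and error term, the ratio table, slide, and leaving out each rat. The named genes are all members, with the 5 probes most like each in pattern, and some genes of these sets and lists are not reported here by name. Fixed lists held 6 sets of glial, myelin, neurotrophin, neuropeptide Y, S100 and fatty acid-binding genes and sets of other cell types. The members and lists were chosen with earlier results of these data known. Lists of endothelium (0.17 between the nostrils of female 4, from 1 probe), fat (0.21), skeletal muscle (-0.28), cartilage (0.35), macrophages (0.22) and red blood cells (-0.31) are not described further for the nostrils. Of all probes, 10735 (26.2%) matched an accession of the RefSeq table, whose GRCr8 positions were not used.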

Additional observations from a re-analysis of the deposited data

Results flagged for a closer look

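Of 21 sets of member values tested for a single sample far from the rest, 4 had one. The measure flags about 1 in 20 independent sets, but these sets share rats and arrays, so the count is not a test. In male 2 the Fabp7 level averaged over both nostrils was 8.75, and the nearest male had 7.90. In female 4 the difference between nostrils was 1.92 for Fabp7, where the next highest rat had 0.11. In the same rat it was 1.02 for Npy (next highest 0.30) and 0.79 for Pmp22 (next highest 0.24). The largest Gfap difference, 2.23 in the same rat, was not set apart by this measure, since female 3 had 1.02.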

How the results depend on the processing

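No member passed 1% between nostrils or sexes under any scaling, floor, filter, background correction or left-out rat, and the count of all sequences between nostrils stayed 0. Between sexes the count of 12 became 3 with detection on at least 11 arrays, 6 with the ratio table, 1031 with the 15 arrays as independent samples, 641 with slide as a block and 9 to 10 without a rat. Between rats the count of 768 became 1305 with 75th percentile scaling, 1450 with quantile normalization, 1497 with normexp, 356 with the ratio table, 148 with slide as a random block and 1 over contrasts within slides. Without 1 rat it was 186 to 898 (male 2 386, female 4 385, male 5 438, female 7 245, female 8 186). Of the 15 correlations between members, 0 to 2 passed over rats without 1 of them (Fabp7 with Npy, r = 0.86, and with Mbp, r = 0.84, without female 4, and Npy with Gfap, r = 0.94, without female 8), and 0 to 1 over nostril differences (Fabp7 with Pmp22, r = 0.96, without male 5). Some directions turned. Without 1 rat the sex difference was -0.024 to 0.17 for Ngfr and -0.32 to 0.081 for Mbp A_44_P334799, and the nostril difference was -0.011 to 0.42 for Mbp A_43_P11782 and -0.0087 to 0.35 for Fabp7. With slide as a block, a fit that took each array as a sample, the sex difference of Mbp A_43_P11782 was 0.24. The Gfap difference between the nostrils of female 4 was 1.299 with normexp. The causes were not tested. Contrasts within slides, and the correlations without 1 rat or centered by sex (0 of 15 passed), were chosen after seeing the data. Rat was the block between nostrils. Signal over background limits Mbp A_44_P334799 (13.4 intensity units on its dimmest array) and S100b.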

Other observations

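A further array sequence described as Gfap but listed under the accession AF028784 (A_44_P177726) was noticed after its values were seen. It was well above background on 5 of 15 arrays, with log2 levels from -3.32 to -1.58. In female 4 it was at -1.58 in nostril A and at the floor in nostril B.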
